A study of Mus musculus with 39 samples.

Results

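The 10 genes described here code for AMPA and NMDA receptor subunits: Gria1, Gria2, Gria3 and Gria4 for the AMPA type, and Grin1, Grin2a, Grin2b, Grin2c, Grin2d and Grin3a for the NMDA type. They were taken by name from the 24421 genes of the nuclear RNA tables, in which all 10 were listed. In the chromatin accessibility lists, 343 of 170178 regions lay over their gene bodies or start sites. Nuclei came from the neocortex of male and female mice carrying Arc-creERT2 (TG/WT) together with R26 CAG-Sun1-sfGFP-Myc, either M/WT or M/M, aged 13 to 16 weeks. Tamoxifen was injected 5 h before a social interaction test, and the mice were killed on day 3. In this line, the Arc promoter drives a recombinase during the tamoxifen window. A cell in which it does so carries a GFP-tagged protein in its nuclear envelope from then on. The labelled set thus depends on the activity of the Arc transgene. The study considers it likely that most labelled neocortical nuclei belong to excitatory neurons, in which Arc is abundant. All libraries share these alleles, the injection and the test, but nothing in the labels says which reporter dose or sex went into which library. The groups are set apart by how the GFP-positive nuclei were collected: FANS sorts them in a flow cytometer, and INTACT pulls them down with antibody-coated beads. The RNA libraries, each from 10000 nuclei, came in 3 batches from distinct biological sources, with 4 FANS and 4 INTACT libraries in batch 1, 7 and 4 in batch 2, and 7 and 5 in batch 3. The study describes the RNA integrity of batch 1 as high and that of the other batches as lower. The 3 FANS and 3 INTACT ATAC-seq libraries, each from 50000 nuclei, are technical replicates of 1 biological source.

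Reads on genes ranged from 4205665 to 11028713 per RNA library. Technique and depth moved together in batch 1, with 4853224 to 6066759 reads in FANS and 8621143 to 11028713 in INTACT, and the share of reads outside annotated features was 80.6% ± 0.985 (SD, n = 4) in FANS and 71.9% ± 0.628 (n = 4) in INTACT. In batches 2 and 3 that share was 80.0% and 81.9% in FANS, and 78.1% and 82.4% in INTACT. The labels call the nuclei activated neuronal nuclei. All 10 markers of excitatory neurons and all 10 of inhibitory neurons had reads in every group, but so had all 9 astrocyte and all 8 oligodendrocyte markers. In batch 1 the summed level of the astrocyte markers was 6315 to 7051 normalized counts in FANS and 7813 to 8027 in INTACT, of which the glutamate transporter gene Slc1a2 alone had a mean of 6862, and that of the oligodendrocyte markers was 6096 to 7654 and 9840 to 10400. The sums were also higher in batch 1 INTACT for the inhibitory markers (907.8 to 1035 against 1194 to 1324). Of these markers, 5 passed as higher and 2, Adarb2 and Dlx6os1, as lower, against 18.6% and 17.5% of all genes. Lamp5 had the highest mean of them (611.1). The sums were higher as well for the 6 markers of oligodendrocyte precursors (705.0 to 760.4 against 877.4 to 950.5) and the 7 of vascular cells (19.61 to 30.57 against 44.99 to 60.81). They overlapped for the excitatory markers (7687 to 8291 against 8278 to 8853) and the 8 of microglia (286.8 to 377.5 against 299.4 to 330.5). The sums overlapped in batch 2, also for the oligodendrocyte markers (6895 to 13438 in FANS and 13314 to 16010 in INTACT). Of these markers, 4 of 8 passed as higher in INTACT, against 0.834% of all genes. The part of these cells and of depth in the differences below was not tested, and in such bulk libraries fewer cells of a type and less RNA per cell cannot be told apart. Nothing in the labels ties the libraries of a batch to separate animals, so p-values within a batch measure the spread between its libraries only.

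AMPA receptors carry most of the fast excitatory current at cortical synapses, and NMDA receptors pass calcium when glutamate and a co-agonist are bound and the membrane is depolarised. The AMPA subunits GluA1 to GluA4 assemble as tetramers, and the presence of edited GluA2 keeps the channel nearly impermeable to calcium. Every NMDA receptor holds the GluN1 subunit coded by Grin1, together with glutamate-binding GluN2 subunits (Grin2a to Grin2d) or the glycine-binding GluN3A (Grin3a). In the forebrain, GluN2B and GluN2A are the main partners of GluN1, and their balance shifts towards GluN2A as synapses mature.

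The members differ widely in size. By the RefSeq annotation of GRCm38.p6, Grin2b spans 460.3 kb (chromosome 6, 135713221 to 136173545), Grin2a 427.9 kb (chromosome 16, 9567901 to 9995813), Gria4 378.3 kb (chromosome 9, 4417896 to 4796234) and Gria1 318.6 kb (chromosome 11, 57011618 to 57330244). Gria3 spans 277.8 kb on chromosome X (41400819 to 41678601), Grin3a 184.2 kb on chromosome 4 (49661611 to 49845769) and Gria2 121.4 kb on chromosome 3 (80681450 to 80802835). The 3 short genes are Grin2d with 34.20 kb (chromosome 7, 45832483 to 45866681), Grin1 with 28.01 kb (chromosome 2, 25291177 to 25319187) and Grin2c with 18.07 kb (chromosome 11, 115249169 to 115267243). Gria1 and Gria3 lie on the plus strand and the other members on the minus strand.

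The RefSeq promoter table held 5 of the 10 members: Gria2, Gria4, Grin1, Grin2c and Grin2d. The promoters of 4 of them are shown because they mark the extremes of the data below: Gria2 had the highest RNA level per kb, Grin1 was the member that passed the test in more than 1 batch, and Grin2d and Grin2c had the start sites with peaks missing from INTACT lists. Each runs 5′ to 3′ on the minus strand of GRCm38.p6, from 250 bases before to 50 bases after the start site, and capitals mark the motif matches named after them.
Gria2 promoter, chr3:80802786-80803085: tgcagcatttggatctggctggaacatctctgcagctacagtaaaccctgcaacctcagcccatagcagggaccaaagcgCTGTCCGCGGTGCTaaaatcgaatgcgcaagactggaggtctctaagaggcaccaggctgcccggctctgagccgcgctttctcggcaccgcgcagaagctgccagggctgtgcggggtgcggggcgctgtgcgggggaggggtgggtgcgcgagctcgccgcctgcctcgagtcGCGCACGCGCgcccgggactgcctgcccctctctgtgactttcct
Grin1 promoter, chr2:25319138-25319437: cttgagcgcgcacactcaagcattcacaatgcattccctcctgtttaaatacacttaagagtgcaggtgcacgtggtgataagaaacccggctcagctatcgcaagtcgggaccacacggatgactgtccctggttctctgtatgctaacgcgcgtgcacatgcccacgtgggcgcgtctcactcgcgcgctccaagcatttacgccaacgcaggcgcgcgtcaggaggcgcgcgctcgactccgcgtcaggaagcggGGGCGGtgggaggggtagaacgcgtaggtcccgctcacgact
Grin2c promoter, chr11:115267194-115267493: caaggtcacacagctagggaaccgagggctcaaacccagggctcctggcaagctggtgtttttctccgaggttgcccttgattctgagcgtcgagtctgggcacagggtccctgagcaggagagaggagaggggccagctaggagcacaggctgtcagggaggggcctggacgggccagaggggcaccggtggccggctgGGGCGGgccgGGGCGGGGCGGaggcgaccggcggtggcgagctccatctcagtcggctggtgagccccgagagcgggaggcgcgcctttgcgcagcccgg
Grin2d promoter, chr7:45866632-45866931: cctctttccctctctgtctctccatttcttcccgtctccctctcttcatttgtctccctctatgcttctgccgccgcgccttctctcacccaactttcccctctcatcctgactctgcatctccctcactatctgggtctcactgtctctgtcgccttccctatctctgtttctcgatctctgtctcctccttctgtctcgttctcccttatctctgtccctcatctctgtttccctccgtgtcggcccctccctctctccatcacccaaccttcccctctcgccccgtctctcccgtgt
The motifs searched on both strands were SP1 (GGGCGG), CRE (TGACGTCA), AP-1 (TGANTCA), NFY (CCAAT), EGR (GCGTGGGCG), and the longer NRF1 and REST motifs. Each was searched as 1 string, in which N, present in AP-1, NRF1 and REST, stands for any base. The Gria2 promoter held the REST motif, the first run of capitals, at position -170 from the start site, which 0.0517% of 32851 promoters hold, and the NRF1 letters at position 5, which 4.60% hold. Grin1 held SP1 once and Grin2c 3 times, with the last 2 matches sharing a base, against 35.7% of all promoters with at least 1. None of the 7 letter strings occurred in the Grin2d window, and Gria4 held NFY at 2 places, against 37.4% of all promoters. C and G made up 65.7% of the Gria2 window, 60.7% of Grin1, 70% of Grin2c and 56% of Grin2d, against a median of 52.7%. The Grin1 window held 33 CG dinucleotides, more than 91.4% of all promoters, and the Grin2d window held 12. A match is a run of letters and was not tested as a binding site.

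Relative levels of the subunits were compared within each batch as normalized counts divided by the length of the curated exons, in kb. Gria2 stood first in all 3 batches, with means of 1860, 1753 and 1508 normalized counts per kb in batches 1, 2 and 3. Gria3 followed at 1074, 1001 and 878.8, then Grin1 at 634.5, 637.1 and 496.2, Gria4 at 509.9, 448.0 and 432.7, and Gria1 at 297.2, 285.4 and 234.5. The GluN2 subunits were lower, with Grin2b at 176.4, 173.9 and 157.3 and Grin2a at 80.56, 76.99 and 73.35. Grin3a (25.62, 26.02 and 15.82), Grin2d (6.243, 5.925 and 3.934) and Grin2c (1.646, 1.028 and 0.6891) closed the order, which was the same in each batch. Neighbours in the order were separated by more than the spread of all libraries of a batch, with 3 exceptions. Grin1 and Gria4 overlapped in batch 1, where Grin1 was above Gria4 in 6 of 8 libraries, and in batch 3, where it was above in 11 of 12, and Grin2d and Grin2c overlapped in batch 3. The places of Grin1, Gria4, Grin2b and Gria1 depend on the length used: per kb of coding exons, batch 1 gave 1097 for Gria4, 956.2 for Grin2b, 940.7 for Grin1 and 625.8 for Gria1.

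The study compared FANS and INTACT nuclei in isolation efficiency, nuclear size, transcriptome and chromatin accessibility. In batch 1, 8 of the 10 members differed between the techniques at an adjusted p under 0.05 in limma on log2(normalized count + 1), and for all 8 the libraries of the techniques did not overlap. All 4 AMPA subunit genes, Grin2a and Grin2b were lower in INTACT, while Grin1 and Grin2c were higher. Over all 15114 genes tested in that batch, 17.5% were lower and 18.6% were higher in INTACT by the same rule. The differences were small except for Grin2c, which alone among the members also reached 1.5-fold, a limit that 7.97% of all genes passed. The median log2 fold change of the members was -0.20 and that of all genes 0.01.

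**Figure D1:**
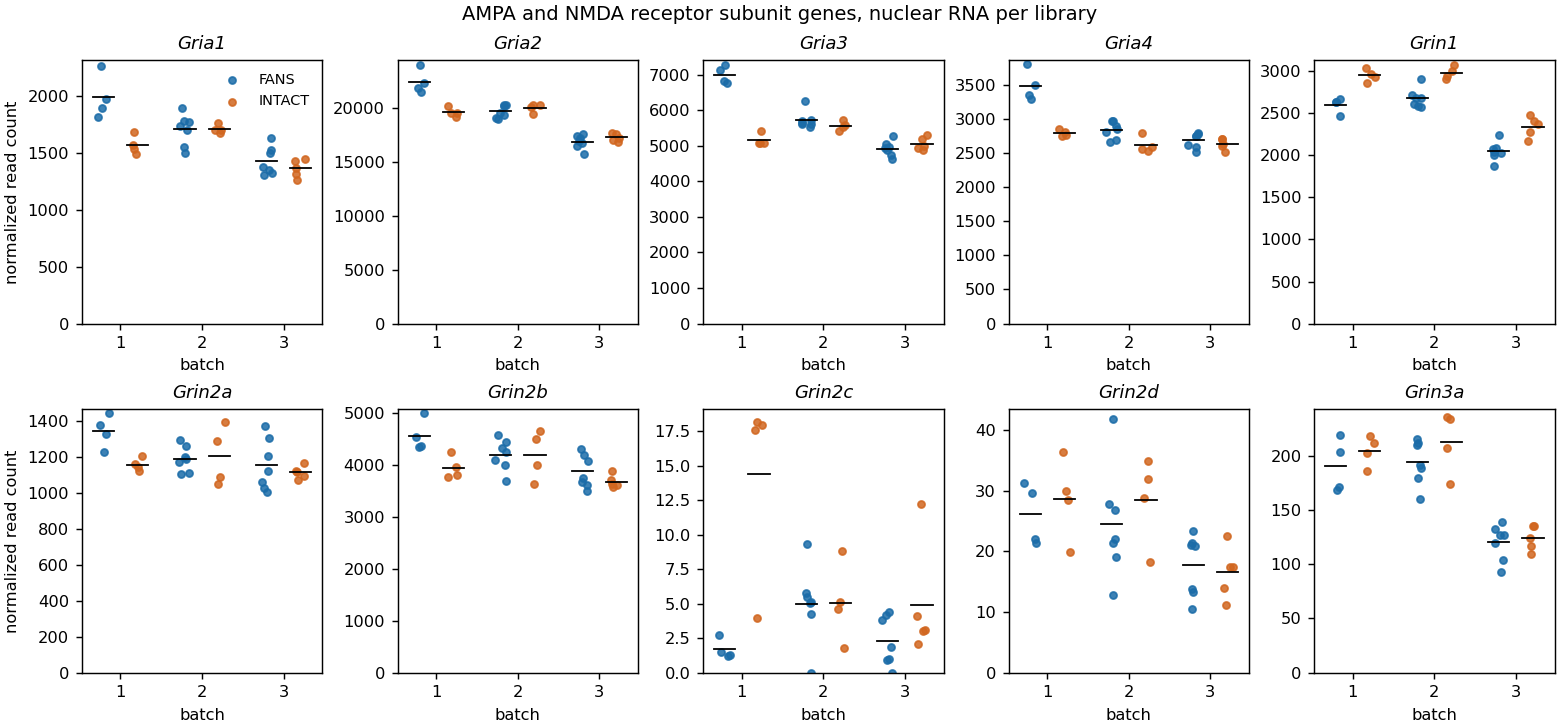
Normalized read counts of the 10 genes (vertical axes, each starting at 0) in every RNA library, by batch (horizontal axes). Blue points are FANS libraries, orange points are INTACT libraries and black lines are group means; in batch 1 the points of the techniques are separate for all genes but Grin2d and Grin3a, and Grin1 is higher in INTACT in each batch.

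Gria3, which codes for GluA3, showed the clearest difference. Its 4 batch 1 FANS libraries held 6764, 6828, 7124 and 7276 normalized counts and its INTACT libraries 5065, 5076, 5083 and 5418. Every INTACT library lay below every FANS library, and the log2 fold change was -0.44 (SE 0.0407, adjusted p = 7.38e-09). In batch 2 the FANS libraries ran from 5541 to 6246 with a median of 5628, and the INTACT libraries held 5429, 5519, 5595 and 5732. In batch 3 they ran from 4617 to 5268 with a median of 4928, and the INTACT libraries held 4877, 4941, 4985, 5189 and 5303. The groups overlapped in both of these batches, and the log2 fold changes were -0.04 (adjusted p = 0.745) and 0.04 (adjusted p = 0.756).

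Gria1, whose GluA1 subunit is inserted into synapses during potentiation, held 1811, 1897, 1970 and 2263 normalized counts in batch 1 FANS and 1489, 1534, 1566 and 1682 in INTACT (log2 fold change -0.34, SE 0.0577, adjusted p = 5.05e-05). Gria4, whose product GluA4 is prominent in interneurons, held 3293, 3344, 3489 and 3795 in FANS and 2748, 2765, 2805 and 2845 in INTACT (log2 fold change -0.32, SE 0.0458, adjusted p = 5.60e-06). For Gria2 the FANS libraries held 21474, 21856, 22248 and 23983 normalized counts and the INTACT libraries 19168, 19488, 19513 and 20108, a smaller difference (log2 fold change -0.19, SE 0.0405, adjusted p = 4.88e-04). In each of these 3 genes the highest INTACT library was below the lowest FANS library. In batches 2 and 3 the techniques overlapped for all 3, and the largest of the 6 differences was that of Gria4 in batch 2, with 2833 ± 125 (SD, n = 7) in FANS and 2619 ± 120 (n = 4) in INTACT (log2 fold change -0.11, adjusted p = 0.267).

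The GluN2 subunit genes Grin2a and Grin2b were lower in INTACT of batch 1, as the AMPA genes were. Grin2b held 4354, 4366, 4531 and 4999 normalized counts in FANS and 3772, 3801, 3957 and 4252 in INTACT (log2 fold change -0.21, SE 0.0485, adjusted p = 0.00134). Grin2a held 1226, 1329, 1377 and 1443 in FANS and 1121, 1144, 1162 and 1202 in INTACT (log2 fold change -0.21, SE 0.0531, adjusted p = 0.00250). The groups did not overlap for either gene. In batch 2 the log2 fold changes of Grin2a and Grin2b were 0.01 and -0.01, and in batch 3 they were -0.05 and -0.07, with overlapping groups and adjusted p from 0.606 to 0.981.

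Grin1 was the only member to pass in limma in more than 1 batch, and its mean was higher in INTACT in all 3, as were the means of Grin2c and Grin3a. In batch 1 its FANS libraries held 2468, 2626, 2635 and 2669 normalized counts and its INTACT libraries 2859, 2930, 2968 and 3039. Every INTACT library was above every FANS library (log2 fold change 0.18, SE 0.0429, adjusted p = 0.00154). In batch 2 the 7 FANS libraries ran from 2570 to 2899 with a median of 2673, and the INTACT libraries held 2903, 2938, 3002 and 3069. The groups again did not overlap, but the difference missed the threshold over all genes (log2 fold change 0.16, SE 0.0479, adjusted p = 0.0991). DESeq2 on the whole reads gave that difference an adjusted p of 0.0226. In batch 3 the FANS libraries ran from 1875 to 2241 with a median of 2039, and the INTACT libraries held 2167, 2278, 2370, 2405 and 2478. Here 4 of the 5 INTACT libraries were above the highest FANS library (log2 fold change 0.19, SE 0.0503, adjusted p = 0.0412). That batch 3 call was lost without any 1 of FANS replicates 1, 3 and 5 or INTACT replicates 2, 3, 4 and 5, with adjusted p from 0.0707 to 0.175, and with no filter on low counts (adjusted p = 0.0767). Grin1os, an antisense gene on the other strand, shares 1269 exon bases with Grin1, and whether the counting used strand is not given in the sources used here. Grin1os was lower in INTACT of batch 1, with 188.2 ± 25.4 normalized counts (SD, n = 4) in FANS and 154.5 ± 13.5 (n = 4) in INTACT (log2 fold change -0.28, adjusted p = 0.0417). In batch 2 it had means of 193.2 and 193.0, and in batch 3 of 144.9 and 187.7 (adjusted p = 0.112).

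Grin1 was thus the single member past the threshold in batch 3, where 9 members were tested and Grin2c was below the count limit. Over all 14440 genes of that batch 1.18% were higher and 0.519% were lower in INTACT. In batch 2, none of the 10 members passed in limma, against 0.834% of 14876 genes higher and 0.309% lower, and Gria4 and Grin1 had an unadjusted p under 0.05 (0.0307 and 0.00315). At the 1.5-fold limit, 0.128% of all genes in batch 2 and 0.360% in batch 3 were called, and no member was. The members' median log2 fold change was 0.02 in batch 2 and -0.03 in batch 3, beside 0.00 for all genes.

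**Figure D2:**
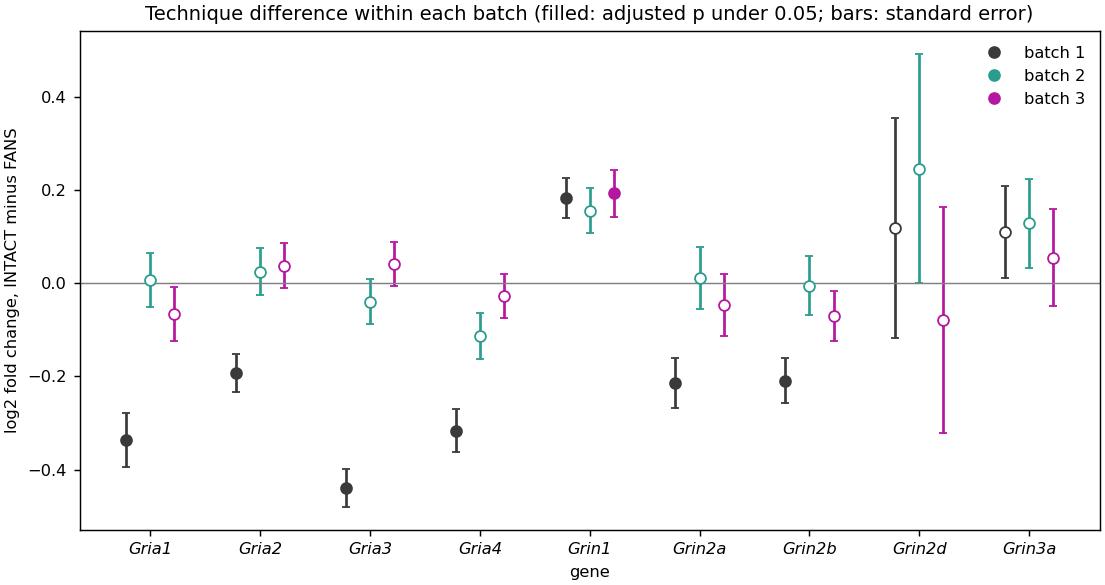
Log2 fold change of INTACT over FANS (vertical axis) for 9 of the genes (horizontal axis) in batch 1 (dark grey), batch 2 (green) and batch 3 (purple), with standard errors as bars and filled points for an adjusted p under 0.05; Grin2c, at 2.36 in batch 1, is left out for scale. The batch 1 points of the AMPA genes, Grin2a and Grin2b lie below those of the other batches, while those of Grin1 lie together between 0.16 and 0.19.

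With all 31 libraries in 1 fit and batch as a term, 3 of the 9 members tested passed. The libraries come from 3 biological sources, 1 per batch. The p-values of this fit and of the interaction below therefore measure spread between libraries, not between sources. Grin1 was higher in INTACT (log2 fold change 0.18, SE 0.0272, adjusted p = 9.94e-06), where 8.66% of 14332 genes were higher. Gria4 (log2 fold change -0.13, SE 0.0325, adjusted p = 0.00328) and Gria3 (log2 fold change -0.12, SE 0.0406, adjusted p = 0.0458) were lower, where 7.45% of all genes were lower. The Gria3 call was lost without any 1 of 12 of the 31 libraries, among them each library of batch 1. Gria1 was just outside the threshold (log2 fold change -0.11, adjusted p = 0.0607). Gria2, Grin2a, Grin2b, Grin2d and Grin3a did not pass, with log2 fold changes of -0.03, -0.07, -0.09, 0.08 and 0.09 and adjusted p from 0.132 to 0.746, and Grin2c was not tested. The interaction of technique with batch tests whether the technique difference itself differed between batches. It passed for all 4 AMPA genes, with adjusted p of 4.55e-07 for Gria3, 0.00386 for Gria4, 0.00997 for Gria2 and 0.0130 for Gria1, where 18.1% of all genes passed. It did not pass for Grin1 (adjusted p = 0.905), Grin2a (adjusted p = 0.253), Grin2b (adjusted p = 0.236), Grin2d (adjusted p = 0.780) or Grin3a (adjusted p = 0.923). Biological source, RNA integrity and depth change together between batches and cannot be told apart in this difference.

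Grin2c, best known from cerebellar granule cells, was close to the counting limit. In batch 1 the FANS libraries held 1, 1, 1 and 2 reads, or 1.23 to 2.73 normalized counts, and the INTACT libraries held 6, 21, 23 and 27 reads, or 3.97 to 18.17. In INTACT, replicate 4 was far below the other 3, yet still above every FANS library. The log2 fold change was 2.36 (SE 0.501, adjusted p = 5.58e-04). From 5 and 77 reads, and allowing for library size, the ratio of INTACT to FANS was 8.38, with an exact 95% interval of 3.44 to 26.5 that covers counting error only. In batch 2 Grin2c ranged from 0 to 9.33 normalized counts in FANS and from 1.79 to 8.80 in INTACT (adjusted p = 0.941), and in batch 3 from 0 to 4.36 and from 2.06 to 12.18. Of the 9 astrocyte markers, 6 passed as higher in INTACT of batch 1 and none as lower, against 18.6% and 17.5% of all genes. Gfap, Aldh1l1 and Sox9 did not pass (log2 fold changes 0.31, 0.25 and 0.18). Slc1a2, which makes up most of the summed level, had a log2 fold change of 0.21, while those of Slc1a3 and Apoe were 1.52 and 1.28. Aqp4, the water channel of astrocyte end-feet, ranged from 7.64 to 16.72 normalized counts in FANS and from 31.22 to 43.26 in INTACT, and the gap junction gene Gja1 from 8.18 to 20.84 and from 55.13 to 65.78. The INTACT replicate that was low for Grin2c was not low for these genes, with 42.31 for Aqp4 and 62.80 for Gja1. In batch 2, where the Grin2c ranges overlapped, 2 of the 9 markers passed as higher in INTACT and none as lower, against 0.834% and 0.309% of all genes. The 2 were Slc1a3 (log2 fold change 0.93, adjusted p = 0.0149) and Apoe (log2 fold change 0.57, adjusted p = 0.0142). The log2 fold changes of Aqp4 and Gja1 were 0.77 (adjusted p = 0.145) and 0.84 (adjusted p = 0.212). The part of astrocyte RNA in the Grin2c difference was not tested.

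Grin2d, a GluN2 subunit of interneurons, and Grin3a were scarce and overlapped between techniques in every batch. Grin2d ranged from 10.46 to 41.87 normalized counts over all libraries and Grin3a from 93.31 to 235.9. Their log2 fold changes in batch 1 were 0.12 (SE 0.236, adjusted p = 0.737) and 0.11 (SE 0.0984, adjusted p = 0.419).

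Gene length moved with the technique difference. In batch 1 the median log2 fold change was 0.14 for tested genes with a span under 20 kb, -0.05 for those from 20 to 100 kb and -0.14 for those over 100 kb, of which 36.9% were lower and 8.97% were higher in INTACT by the adjusted p. Of the 7 members over 100 kb, 6 were lower, and Grin3a had a log2 fold change of 0.11. The same medians were 0.04, -0.02 and -0.04 in batch 2, and 0.00, 0.00 and -0.02 in batch 3. The part of length in the members' differences was not tested.

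Composition does not depend on the scaling of a library, so the share of each subunit in the summed level per kb of its family was compared. Gria2 made up 48.2% ± 1.47 (SD, n = 4) of the AMPA sum in batch 1 FANS and 51.6% ± 0.994 (n = 4) in INTACT, and Gria3 made up 30.0% ± 0.777 and 27.1% ± 0.599. Neither pair of groups overlapped, and the exact two-sided permutation test gave p = 0.0286, the smallest that 4 against 4 allows. Gria4 was close to constant in batch 1, at 13.7% and 13.5%, and Gria1 at 8.07% and 7.80%. In batch 2 the Gria2 share was 49.8% ± 0.979 (n = 7) and 51.1% ± 0.682 (n = 4; exact permutation p = 0.0455), and the Gria4 share 13.2% ± 0.491 and 12.3% ± 0.404 (exact permutation p = 0.0212), with overlapping groups. In batch 3 no AMPA share reached an unadjusted p of 0.05, and Gria2 stood at 49.2% ± 0.848 (n = 7) and 49.7% ± 0.487 (n = 5).

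Within the NMDA sum per kb of curated exons, Grin1 had the largest share in every library. It made up 66.0% ± 1.77 (n = 4) in batch 1 FANS and 71.1% ± 0.507 (n = 4) in INTACT, while Grin2b made up 21.0% ± 1.52 and 17.2% ± 0.439 and Grin2a 9.61% ± 0.680 and 7.86% ± 0.207. All 3 shares were separate between the techniques (exact permutation p = 0.0286 each). In batch 3, Grin1 made up 64.8% ± 1.66 (n = 7) in FANS and 68.6% ± 1.12 (n = 5) in INTACT (exact permutation p = 0.00379), Grin2b 22.2% ± 0.947 and 19.6% ± 0.578 (exact permutation p = 0.00253) and Grin2a 10.3% ± 0.704 and 9.20% ± 0.399 (exact permutation p = 0.0164), and the Grin2b shares were separate while those of Grin1 and Grin2a overlapped. The directions were the same in batch 2, where all 3 overlapped, with Grin1 at 68.4% ± 1.65 (n = 7) and 70.5% ± 1.87 (n = 4; exact permutation p = 0.0939). Over the 36 shares and ratios of both families, 11 had an unadjusted p under 0.05 and none passed the Benjamini-Hochberg adjustment, with smallest adjusted exact p of 0.0682. Batch 1 alone could not go below 0.0286. The sizes of the shares depend on the length used: per kb of coding exons, the batch 1 means were 38.8% in FANS and 45.0% in INTACT for Grin1 and 45.0% and 39.9% for Grin2b, and with no division by length they were 29.8% and 35.5% for Grin1 and 52.3% and 47.5% for Grin2b. The mean Grin1 share stayed higher and the mean Grin2b share lower in INTACT of all 3 batches with each length. In the AMPA sum, Gria2 made up 63.2% and 66.3% in batch 1 per kb of coding exons.

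The balance of Grin2a to Grin2b differed little. The log2 ratio of their levels per kb was -1.13 ± 0.0701 (SD, n = 4) in FANS and -1.13 ± 0.0528 (n = 4) in INTACT of batch 1, -1.18 ± 0.0372 and -1.17 ± 0.0555 in batch 2, and -1.11 ± 0.0685 and -1.09 ± 0.0357 in batch 3. Exact permutation tests gave p = 0.971, 0.564 and 0.508, and all differences were smaller than the spread between libraries of a group. Log2 values centred on batch and technique also put these genes together: over the 31 libraries Grin2a and Grin2b correlated with each other at r = 0.899, more than with any other of 7320 genes. The next gene for Grin2a was Prkce (r = 0.866), a protein kinase C gene, and for Grin2b it was Tmem132b (r = 0.880). Gria1 was most like Tcf20 (r = 0.830), Gria2 was most like Son (r = 0.870), Gria3 was most like Phf14 (r = 0.823) and Gria4 was most like Pan3 (r = 0.773). Grin1 was closest to Ptprs (r = 0.678) and Grin3a to Ntm (r = 0.681). Gria2 ran against Grin2a (r = -0.643) and Grin2b (r = -0.510) over the same libraries. These correlations describe the libraries, which share their depth and RNA quality across genes.

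**Figure D3:**
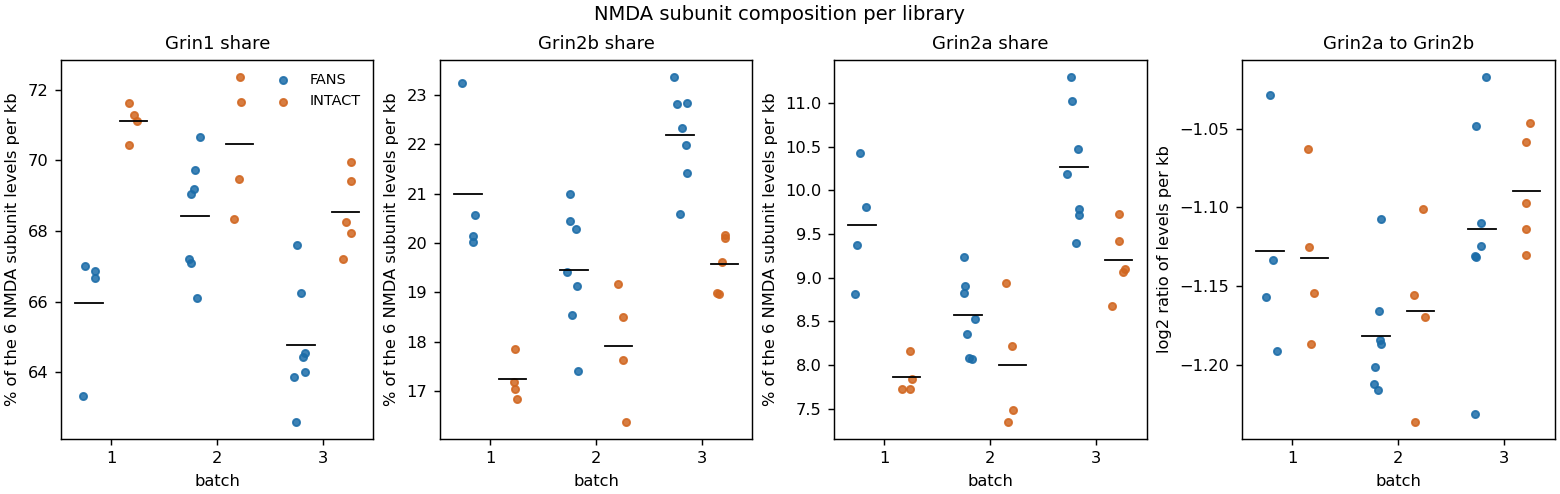
Share of Grin1, Grin2b and Grin2a in the summed levels per kb of the 6 NMDA subunit genes (percent), and log2 ratio of Grin2a to Grin2b (right), for each RNA library by batch. Blue points are FANS, orange points are INTACT and black lines are means; the vertical axes do not start at 0. Mean Grin1 shares lie higher and mean Grin2b shares lower in INTACT, with separate points for Grin1 in batch 1 and for Grin2b in batches 1 and 3, while the ratio overlaps in each batch.

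Other genes of glutamate signalling were followed from lists, whose batch 1 counts are to be read beside the 17.5% of all tested genes that were lower and the 18.6% that were higher, with a median log2 fold change of 0.01. Of 19 genes for postsynaptic scaffold proteins, 12 were lower and none was higher in INTACT of batch 1 (median log2 fold change -0.26). Dlg2 (PSD-93; log2 fold change -0.65, adjusted p = 3.27e-10), which anchors NMDA receptors, and Dlgap2 (log2 fold change -0.62, adjusted p = 4.92e-10) also passed the 1.5-fold limit. In batch 2, 2 of the 19 were lower, against 0.309% of all genes, among them Homer1 (log2 fold change -0.20, adjusted p = 0.0443). In batch 3, 2 were higher, against 1.18% of all genes, among them the scaffold gene Shank1 (log2 fold change 0.37, adjusted p = 0.0122). None of the 19 was lower there.

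Of the 8 kainate and delta receptor genes, a list that also holds Grin3b, 3 were lower and none was higher in INTACT of batch 1, among them Grik1 (log2 fold change -0.48, adjusted p = 0.00152) and Grik4 (log2 fold change -0.33, adjusted p = 0.00377). Among all genes with a span over 100 kb, 36.9% were lower. None passed in batches 2 and 3. Of 7 metabotropic receptor genes tested, Grm3 (log2 fold change 0.29, adjusted p = 1.50e-04) and Grm2 (log2 fold change 0.26, adjusted p = 0.0103), both presynaptic or glial autoreceptors coupled to Gi, were higher in batch 1. Another 3 were lower, among them Grm7 (log2 fold change -0.40, adjusted p = 2.10e-07) and Grm4 (log2 fold change -0.35, adjusted p = 0.0122). Grm8 was lower in batch 1 (log2 fold change -0.32, adjusted p = 2.00e-04) and in batch 3 (log2 fold change -0.26, adjusted p = 0.0398). Its log2 fold change was -0.23 in batch 2 (adjusted p = 0.0626) and -0.27 in the fit of all batches (adjusted p = 1.35e-06). In batch 3, 0.519% of all genes were lower.

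Of 15 auxiliary subunit genes of AMPA and kainate receptors, 2 were higher and 4 lower in batch 1, counts near the shares of all genes, with Cpt1c at the top (log2 fold change 0.48, adjusted p = 1.34e-07) and Shisa7 (log2 fold change -0.47, adjusted p = 3.73e-07) and Cacng3, a TARP gene (log2 fold change -0.31, adjusted p = 0.00144), at the bottom. None passed in batches 2 and 3. Of 19 genes for kinases, phosphatases, editing enzymes and glycine site enzymes that act on the receptors, 7 were higher and 8 lower in batch 1. The calcineurin subunit gene Ppp3r1 (log2 fold change 0.45, adjusted p = 1.74e-06) and Ptpn5, the phosphatase STEP (log2 fold change 0.32, adjusted p = 1.64e-05), were higher. Adarb2, also a marker of interneurons, was lower past 1.5-fold (log2 fold change -0.62, adjusted p = 0.00219). Ptpn5 was the single gene of this list to pass in batch 2 (log2 fold change 0.23, adjusted p = 0.0391), where 0.834% of all genes were higher. None passed in batch 3.

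ATAC-seq marks open chromatin by transposase insertion, and the lists give each peak's fold enrichment over the local background, called height here. The FANS lists held 123596, 128910 and 130088 peaks and the INTACT lists 113224, 99514 and 123895. At start sites, taken as the highest peak touching a 3 kb window around a curated start, Gria4 (12.44, 12.56 and 11.95 in FANS), Grin3a (11.68, 10.76 and 13.10) and Gria2 (10.94, 10.27 and 11.73) were highest. Among all start sites with a peak in all 6 lists these were ordinary heights, at the percentiles 36.6, 34.0 and 29.2. Grin2b was the lowest of the members with a peak in all lists (6.873, 6.176 and 7.910, percentile 9.71). The order of start-site height was not that of RNA level, since Gria3 and Grin1, which followed Gria2 by RNA, had heights of 9.227 ± 0.441 (SD, n = 3) and 9.497 ± 0.417 in FANS.

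Start-site peaks of 8 members were in all 6 lists, and in 5 of these INTACT lay below FANS without overlap, while none lay above. Over all 14808 genes with such peaks, 54.3% lay below and 1.61% above. The study itself reported fewer reads in promoter peaks of INTACT than of FANS. With heights as percentiles of all peaks of their own list the same 5 members lay below, against 36.8% of all genes. The median log2 ratio of INTACT to FANS was -0.24 for the members and -0.23 for all. Among the start sites alone, the percentile of the mean height was higher in INTACT than in FANS for Gria4 (36.6 in FANS and 46.6 in INTACT), Grin3a (34.0 and 44.8), Gria2 (29.2 and 33.4), Grin2a (15.8 and 18.4) and Gria3 (20.4 and 21.8), and lower for Grin1 (21.7 and 15.3), Gria1 (21.3 and 15.9) and Grin2b (9.71 and 8.04). Grin1 had heights of 9.546, 9.888 and 9.058 in FANS and 7.164, 6.138 and 6.826 in INTACT. Gria1 had 9.261, 8.450 and 10.44 in FANS and 6.917, 6.020 and 7.442 in INTACT. Both were lower in each INTACT library (exact permutation p = 0.100, the smallest that 3 against 3 allows). Gria3, Grin2a and Grin2b were also lower without overlap, and Gria2, Gria4 and Grin3a overlapped. The lower Grin1 height in INTACT stood beside the higher Grin1 RNA in INTACT described above, from other nuclei.

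Grin2d and Grin2c had no peak in all 6 lists at the start site. For Grin2d the FANS heights were 10.65, 10.44 and 10.22, and the INTACT heights were 3.565, 5.492 and, in replicate 2, no peak. This was the largest difference of the 10 genes, at the window printed above, with INTACT again below FANS in each library (exact permutation p = 0.100). Over its gene body, Grin2d had 3 regions in each FANS list and 1, 0 and 1 in the INTACT lists. Grin2c had a start-site peak in FANS replicate 2 alone (2.620) and none in the INTACT lists, although its RNA was higher in INTACT of batch 1. The lists carry no read depth, so a missing peak means that none was called in that library.

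The 343 regions over the members were chosen for touching a gene or its start site, so they are set beside the 102938 regions that touch any gene or start site. Of the member regions 88.3% were intronic, against 69.5% over any gene, and 35.0% had a peak in all 6 lists, against 46.1%. Outside start sites, 33.3% of the member regions had a peak in all 6 lists, against 39.3% over any gene. FANS lists held 244, 252 and 248 of the member regions and INTACT lists 182, 152 and 206 (exact permutation p = 0.100). Over any gene the FANS lists held 75911, 79763 and 79766 and the INTACT lists 66059, 58534 and 71893 (exact permutation p = 0.100). Among the 120 member regions in all 6 lists, INTACT heights were below FANS without overlap in 38.3% and above in 4.17%. Over any gene, 37.4% of such regions lay below and 4.89% above, and over all 76555 such regions of the genome 32.8% lay below and 8.68% above. Outside start sites, 36.7% of the member regions in all 6 lists lay below and 4.59% above, against 31.2% and 6.13% over any gene.

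The genes of this set differed from each other in this respect. Grin2a had 58, 56 and 57 regions in FANS and 31, 27 and 34 in INTACT, and Grin2b had 74, 81 and 79 in FANS and 51, 37 and 55 in INTACT. Gria1 had 41, 45 and 43 in FANS and 33, 27 and 34 in INTACT. Grin1, with 6 regions in each FANS list and 3, 2 and 5 in INTACT, and Grin2c, with 1, 2 and 1 in FANS and none in INTACT, had few. For these 5 genes the techniques did not overlap. Gria3 went the other way, with 18, 18 and 17 regions in FANS and 21, 19 and 21 in INTACT. Gria2 (20, 22 and 20 against 17, 16 and 21), Gria4 (17, 15 and 17 against 19, 15 and 25) and Grin3a (6, 4 and 5 against 6, 9 and 10) overlapped. Among the 2595 genes with at least 10 regions, 40.8% had fewer in INTACT without overlap and 9.36% had more, and 3 and 1 of the 7 members in that set did. The ratio of mean INTACT to mean FANS regions was 0.538 for Grin2a, at percentile 12.5 of these genes, 0.611 for Grin2b (percentile 19.2), 1.15 for Gria3 (percentile 83.2), 1.20 for Gria4 on chromosome 9 (percentile 86.5) and 1.67 for Grin3a (percentile 97.9), where the median was 0.848. Gria3 lies on chromosome X. Of 48 genes on X none had fewer regions in INTACT without overlap and 37.5% had more (median ratio 1.17), while on the other chromosomes 41.6% had fewer and 8.83% more (median ratio 0.843). The study also reported that more ATAC-seq reads mapped to chromosome X in INTACT than in FANS. The X chromosome values were computed after the Gria3 counts had been seen, and the part of the chromosome in the Gria3 counts was not tested.

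**Figure D4:**
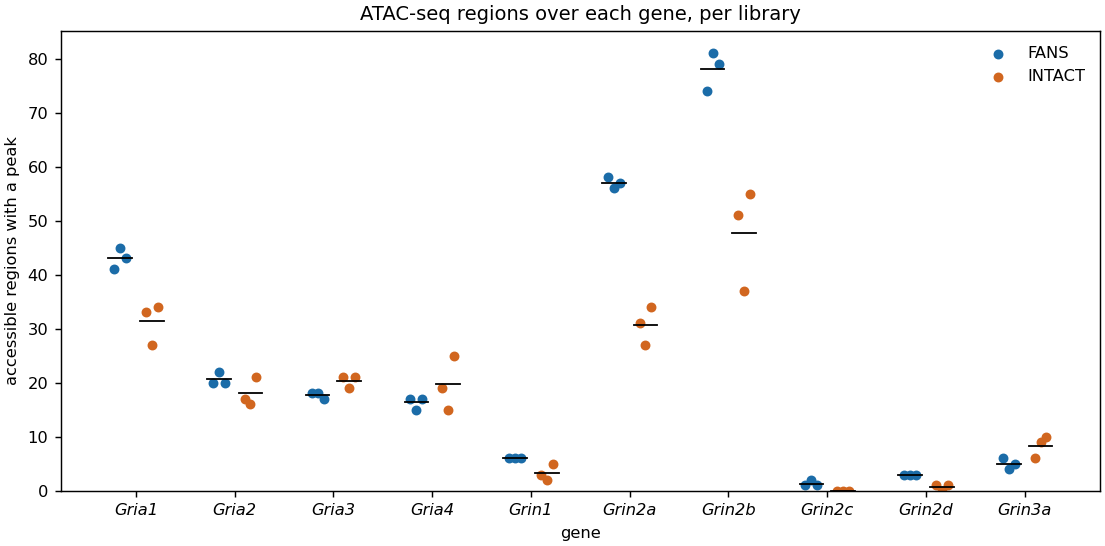
Number of accessible regions with a peak (vertical axis, from 0) over each gene (horizontal axis) in the 3 FANS (blue) and 3 INTACT (orange) ATAC-seq libraries, with black lines for means. Grin2b and Grin2a have 74 to 81 and 56 to 58 regions in FANS and 37 to 55 and 27 to 34 in INTACT, and Gria3 has slightly more in INTACT.

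The genes also differed in the regions that were open in every list. Regions of 1 gene were read in the same 6 libraries and are not independent of each other. Of 22 Grin2a regions outside the start site with a peak in all 6 lists, 19 were lower in every INTACT library than in any FANS library. None of the 22 was higher. Over any gene, outside start sites, 31.2% of regions in all lists were lower and 6.13% were higher. For Grin2b 9 of 29 were lower and none higher, for Gria1 5 of 20 and 1, for Gria3 3 of 13 and 2, and for Gria4 1 of 12 and 1. The median log2 ratio of INTACT to FANS over these regions was -0.46 for Grin2a, -0.24 for Grin2b and -0.03 for Gria4. Of the 343 regions, 31.5% had peaks in FANS lists alone, against 20.9% over any gene, and 9.04% in INTACT lists alone, against 9.47%. A peak in all 3 FANS lists and in no INTACT list was found for 8.16% of the 343 and 5.42% over any gene, with 11 such regions in Grin2a (15.1% of its regions), 7 in Grin2b (6.48%) and 4 in Gria1 (8%). The highest of these, in an intron of Grin2a at chr16:9964468-9964887 and 31140 bases into the gene, had heights of 7.222, 7.458 and 6.807 in FANS. The one region in all INTACT lists and in no FANS list, a kind that made up 0.775% of regions over any gene, lay in an intron of Grin3a at chr4:49677246-49677756, with heights of 4.322, 4.029 and 4.647.

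The highest regions of the 10 genes outside start sites lay in introns of Gria4 (mean height 17.10) and Gria3 (16.90). For Gria1, Grin2a and Grin2b, the 3 genes with the most regions in all 6 lists, the 201 bases around the summit of the top region of each are shown, on the plus strand of GRCm38.p6 (mm10), because they also had the largest differences in the absolute number of regions between the techniques, though not in the ratio. Capitals mark motif matches.
Gria1 intron, chr11:57271734-57271934: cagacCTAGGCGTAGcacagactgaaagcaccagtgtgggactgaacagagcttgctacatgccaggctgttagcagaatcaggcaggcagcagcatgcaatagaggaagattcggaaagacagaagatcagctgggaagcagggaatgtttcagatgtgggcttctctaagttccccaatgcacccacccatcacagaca
Grin2a intron, chr16:9801459-9801659: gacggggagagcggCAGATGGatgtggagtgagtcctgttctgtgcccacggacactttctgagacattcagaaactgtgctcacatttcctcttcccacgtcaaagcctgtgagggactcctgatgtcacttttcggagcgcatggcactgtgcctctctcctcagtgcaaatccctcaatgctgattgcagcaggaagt
Grin2b intron, chr6:136072451-136072651: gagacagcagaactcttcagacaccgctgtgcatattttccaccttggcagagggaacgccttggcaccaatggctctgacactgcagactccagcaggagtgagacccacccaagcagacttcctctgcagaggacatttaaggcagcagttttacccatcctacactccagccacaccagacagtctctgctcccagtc
The motifs searched on both strands were AP-1 (TGANTCA), CRE (TGACGTCA), NEUROD (CAGATGG), EGR (GCGTGGGCG) and a loose form of the longer MEF2 motif, with any letters as its 4 middle bases. The Gria1 element matched this loose form 1 time, as did 4.89% of all regions outside start sites that were in all lists, but its middle bases are G and C and not the A and T of a MEF2 site. The Grin2a element held the NEUROD letters, against 14.8% of those regions, and the Grin2b element held none of the 5. Heights at the Gria1 element were 14.67, 15.82 and 15.82 in FANS and 14.03, 13.21 and 15.14 in INTACT, and the groups overlapped. At the Grin2a element, 194254 bases into the gene, they were 15.96, 16.04 and 16.73 in FANS and 14.63, 10.70 and 14.90 in INTACT. At the Grin2b element, 100994 bases into the gene, they were 13.39, 14.01 and 15.18 in FANS and 11.23, 8.388 and 12.83 in INTACT. INTACT lay below FANS without overlap at both of these. In INTACT, replicate 2 was the lowest library at all 3 elements and also had the shortest peak list.

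**Figure D5:**
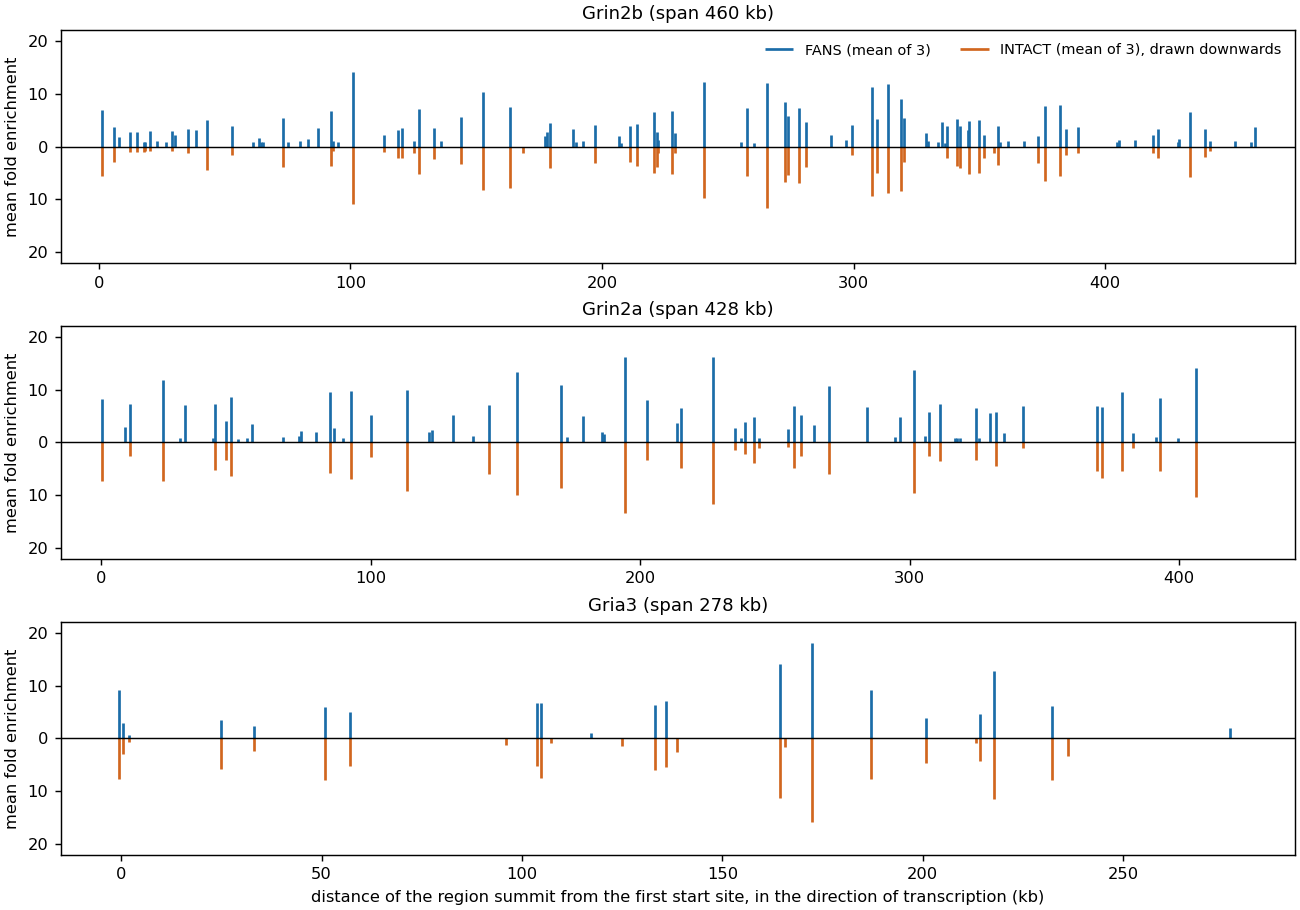
Mean height (fold enrichment, vertical axis) of each accessible region over Grin2b, Grin2a and Gria3, by distance of its summit from the first start site in kb. FANS means (n = 3) are drawn upwards in blue and INTACT means (n = 3) downwards in orange, with 0 counted where a library had no peak; Grin2a shows many blue lines without an orange partner, and Gria3 shows few.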

How the data were processed

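Nuclear RNA was measured in 31 libraries and open chromatin in 6. Per the labels and the methods of the study, the authors aligned RNA reads to mm10 with STAR, removed duplicates by molecular identifier, counted reads per gene with HTSeq and scaled the counts with DESeq size factors, separately for each of 3 batches. The deposited values are such normalized counts, a signal without a fixed total. Each value was a whole multiple of what 1 read is worth in its library (100% within 0.1 reads), so read counts were recovered, and the 5 summary rows were left out. Of the 33 RNA samples in the labels, 2 of batch 2 were not analysed here. The deposited ATAC-seq lists give MACS2 peaks called by the authors in each library, with a fold enrichment ratio, a −log10 q-value and a score per peak, the score being 10 times the −log10 q-value as a whole number and not used here. Their read depth is not given in the sources used here.

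For each batch, limma 3.58.1 (R 4.3.3) with trend was run on log2(normalized count + 1), keeping genes whose mean was 5 or more. A gene passed at a Benjamini-Hochberg adjusted p under 0.05 over all genes tested and was called if it also changed by 1.5-fold, and fold changes on this scale understate those of low genes. The design assumed scaled counts, so no test had to be replaced. edgeR 4.0.16 and DESeq2 1.42.0 on the recovered reads were alternatives. On simulated counts for each batch, all 100 genes changed by 2-fold were recovered, and 17, 31 and 30 of 100 changed by 1.25-fold in batches 1, 2 and 3. In the data, 5458 of 15114 genes passed in batch 1, far more than the 100 changed at each size. The recovered shares therefore do not carry over to that batch.

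Exon lengths, spans and start sites came from RefSeq of GRCm38.p6, matched by symbol. Shares were compared by exact two-sided permutation tests. Overlapping peaks of the 6 lists were merged into regions, counted for a gene if they touched its body or a 3 kb start-site window. Replicate numbers did not pair the RNA libraries (12 correlations of deviations, -0.07 to 0.112), so no block was used. No 2 libraries agreed within sampling noise (chi-square per gene 1.78 to 16.3 over 70 pairs).

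The 10 genes, the gene and marker lists and the tests were chosen with earlier results of these data known. The rule named all 10 members. From the other lists, genes past both limits were named, and otherwise from the 2 highest and 2 lowest log2 fold changes, taking genes whose mean was 50 or more, and some of these are not reported here. Most similar genes were named from the 2 highest correlations, taking genes whose mean was 100 or more. Regions were named from the 3 highest outside start sites, and the Grin2a and Grin3a regions found with 1 technique were chosen after their values were seen.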

Additional observations from a re-analysis of the deposited data

Results flagged for a closer look

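Within groups of 4 to 7 RNA libraries, 1 library stood far from the others in 4 of 60 groups of member values, where about 5% are marked by chance. For Gria3 this was INTACT replicate 1 of batch 1, with 5418 normalized counts against 5065 to 5083 in the other 3, and FANS replicate 6 of batch 2, with 6246 against 5541 to 5722. For Grin2c it was INTACT replicate 4 of batch 1, with 3.970 against 17.59 to 18.17, and INTACT replicate 5 of batch 3, with 12.18 against 2.060 to 4.110.

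The difference between techniques itself differed between batches for the 4 AMPA subunit genes, with adjusted p for the interaction of 4.55e-07 for Gria3, 0.00386 for Gria4, 0.00997 for Gria2 and 0.0130 for Gria1 in limma. In each of them INTACT was lower in 4 of 4 batch 1 libraries than any FANS library.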

How the results depend on the processing

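The 8 members that passed in batch 1 were 8 under every alternative, which changed the pseudocount, the filter, the scaling, the test (edgeR or DESeq2 on reads) or the library left out. In batch 2 none passed except 1, Grin1, with DESeq2. In batch 3, 1 passed, but none with no filter on low counts, and 0 to 1 when 1 library was left out. In the fit of all batches 3 passed, leaving out 1 library gave 2 to 4 members, and Gria1 passed with 75th percentile scaling (adjusted p = 0.0457) and quantile normalization (adjusted p = 0.0485), Gria2 with quantile normalization (adjusted p = 0.0233), while Gria3 did not pass with no filter (adjusted p = 0.0675) or quantile normalization (adjusted p = 0.0618). Of 808 alternative values for single members, 748 kept direction and side of the threshold, 22 lost the call, 11 gained one and 27 changed sign, the cause of which was not tested. In batch 2 the genes higher and lower among all that passed, 124 and 46, were 94 and 62 with 75th percentile scaling, and 351 genes passed with DESeq2 and 85 with no filter, in place of 170.

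Sign changes were among small differences (log2 fold change, INTACT minus FANS). With 75th percentile scaling Gria1 and Grin2a of batch 2 were at -0.0140 and -0.0094. With quantile normalization they were at -0.0057 and -0.0042, and Gria2 was at -0.0252 in batch 2 and -0.0940 in batch 3. With edgeR, Grin2c of batch 2 was at -0.0461. Leaving out 1 library gave -0.0033 to 0.2759 for Grin2d in batch 1. In batch 2 it gave -0.0235 to 0.0324 for Gria1, -0.0622 to 0.0751 for Grin2a, -0.0572 to 0.0622 for Grin2b and -0.2712 to 0.4496 for Grin2c. In batch 3 it gave -0.1943 to 0.0446 for Grin2d and -0.0044 to 0.0980 for Grin3a.

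The replicate numbers share only a number, since 1 of 12 correlations was over 0.1 and 3 of the 12 libraries correlated best with their own number. With the replicate block, 5251, 4 and 1105 of all genes passed in batches 1, 2 and 3, against 5458, 170 and 246, but the members passing stayed 8, 0 and 1, and Gria2 (-0.0013) and Grin2b (0.1100) of batch 2 and Grin2a (0.0175) and Grin2d (0.0615) of batch 3 changed sign. Under the block, 0 AMPA and 0 NMDA shares or ratios had an unadjusted p under 0.05, against 4 and 7, in a design whose 3 to 5 pairs a batch cannot reach it. The log2 ratio of Gria1 to Gria2 in batch 2 then differed by 0.0994 (INTACT minus FANS). The differences in the Grin2c and Grin2d shares of batch 2 were 0.0333 and -0.0486 percentage points.

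Leaving out 1 library gave 2 to 5 such AMPA results, with 2 without INTACT replicate 1 or 4 of batch 2, and 6 to 9 NMDA results. Sign changes among shares gave ranges, in percentage points, of -0.620 to 0.0859 (Gria1), -0.0263 to 0.0887 (Grin2d) and -0.0489 to 0.199 (Grin3a) in batch 1, and -0.0651 to 0.211 (Gria1), -0.0323 to 0.0209 (Grin2c), -1.23e-04 to 0.134 (Grin2d) and -0.0432 to 0.180 (Grin3a) in batch 2. The log2 ratio of Grin2a to Grin2b differed by -0.0279 to 0.0283 in batch 1 and -0.0051 to 0.0399 in batch 2, and that of Gria1 to Gria2 by -0.0555 to 0.0003 in batch 2. Per kb of coding exons, or with no division by length, the Grin2c share of batch 2 differed by 3.86e-04 and 0.00118 and the Grin3a share of batch 3 by 0.0192 and 0.0448, and 1 NMDA result passed the adjustment (adjusted exact permutation p = 0.0455). Start-site heights as percentiles of all peaks of their own list put Gria4 0.100 and Grin3a 0.937 points higher in INTACT. The members below FANS at the start site, 6 with Grin2d included, were 6 to 8 without 1 library (8 without FANS replicate 2 or INTACT replicate 3), and the difference in regions -81 to -54, or -50 for peaks with a −log10 q-value of at least 5. Peak lists without read depth limit what a missing peak can show, and so do the single-digit read counts of Grin2c.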
